A study of Mus musculus with 4 samples.

Results

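The striated muscle miRNA genes Mir1a-1, Mir1a-2, Mir133a-1, Mir133a-2, Mir133b, Mir206, Mir208a, Mir208b and Mir499 were followed through 4 small RNA libraries of Tbx18-lineage stroma. They were chosen by name, and all 9 had a row among the 643 miRNA genes and 2976 rows of the table. The libraries formed 1 group, labelled wildtype, of CD1 mouse embryos at E10.5 carrying Tbx18-Cre and CAG-tdTomato. In these embryos Cre driven by Tbx18 switches on a red fluorescent protein, and the mark stays in descendants of the cells that once made Cre, so a sorted cell need not have been expressing Tbx18. Values are TPM, in which reads are corrected for the length of each gene and for the total of each library. There was no other condition, and no label says whether the libraries came from separate embryos, litters or pools, so each SD and p-value covers the spread among these 4 libraries alone, and that spread may be technical. The depth was 146255 miRNA reads in library 4 and 883201 to 1087240 in libraries 1 to 3, as worked back from TPM and gene length. The summed TPM of all miRNA genes was 16399 in library 4 and 42494 to 65478 in the others. Tbx18 itself was not analysed here. Of the 4 mesenchymal stroma markers, Mir199a-1 and Mir199b were at 764 ± 468 and 127 ± 89.9 TPM (SD, n = 4). Both were lowest in library 4, as were 82.4% of miRNA genes with a mean of at least 10 TPM. Mir199a-2 and Mir214 were listed at 0 in all libraries. A listed 0 need not mean absence where a row overlaps another, as described below.

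A miRNA is cut from a hairpin precursor into a pair of short arms, and the arm that is loaded into Argonaute represses messenger RNAs that pair with its seed, the bases 2 to 8 from its 5′ end. The striated muscle miRNAs, often called myomiRs, are switched on with muscle differentiation. Mir1a and Mir133a genes lie in pairs transcribed in heart and skeletal muscle, Mir206 and Mir133b form a pair known mainly from skeletal muscle, and Mir208a, Mir208b and Mir499 sit inside myosin heavy chain genes of heart and slow muscle. miR-1 and miR-206 are known for promoting muscle differentiation, and miR-133 for effects on myoblast proliferation.

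The mature sequences below show which members are read by the same seed and which could not be told apart by it. They are from RefSeq on GRCm38.p6, and mature sequences of 6 of the 9 members were used. None was used for Mir1a-2, Mir133a-1 or Mir133a-2, which does not show that RefSeq lacks them. Capitals mark the seed.
miR-206-3p: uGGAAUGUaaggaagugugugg
miR-133b-3p: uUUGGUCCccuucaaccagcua
miR-208a-3p: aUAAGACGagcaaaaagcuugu
miR-208b-3p: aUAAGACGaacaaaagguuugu
miR-499-5p: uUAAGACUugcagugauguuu
The arms miR-208a-3p and miR-208b-3p shared the whole seed and 19 of 22 bases, with the differences G10A, A16G and C18U, where the base of miR-208a-3p comes first and positions count from 1 at its 5′ end. The seed of miR-499-5p differed from theirs at its last base (G8U). Among 1674 mature sequences searched, the seed of miR-206-3p was also present in Mir6349 and Mir6382, which were not analysed here. In that set no gene outside the 9 members carried the seeds of miR-133b-3p, miR-208a-3p or miR-499-5p. Sequences outside that set were not checked.

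The deposited row counts the whole hairpin, so either arm could have supplied its reads. The Mir206 precursor is shown because it carried most of the reads of these genes, with its 5p and 3p arms in capitals and the loop and ends in lower case. The 5p arm of Mir1a-1, the related gene on chromosome 2, is given below that of Mir206 with the seed in capitals.
Mir206 hairpin: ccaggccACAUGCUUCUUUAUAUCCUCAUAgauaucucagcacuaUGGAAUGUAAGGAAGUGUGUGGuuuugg
miR-206-5p: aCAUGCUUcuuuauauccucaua
miR-1a-1-5p: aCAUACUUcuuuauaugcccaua
Both 5p arms had 23 bases and matched at 20 of them, differing by G5A, C17G and U19C, counted from the 5′ end with the base of miR-206-5p first. The first of these differences lies in the seed.

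On GRCm38, Mir206 (gene ID 387202) is on the plus strand of chromosome 1, from 20679010 to 20679082. Mir133b (723817) follows it on the same strand at 20682769 to 20682887, with 3686 bases between the hairpins. Both overlap exons of Gm28653 in GENCODE vM21 and lie within the bounds of Lincmd1 in RefSeq, a long non-coding RNA known from muscle differentiation, which was not analysed here. Mir1a-1 (387136) and Mir133a-2 (723954) lie on chromosome 2 at 180389048 to 180389124 and 180398379 to 180398482, both plus strand and 9254 bases apart, outside GENCODE genes and within the bounds of the RefSeq gene Mir1a-1hg. Their paralogs Mir1a-2 (723959) and Mir133a-1 (387151) lie on chromosome 18 in introns of Mir133a-1hg, on the strand opposite to Mib1. Mir208a (387204) is in an intron of Myh6 and Mir208b (100124433) in an intron of Myh7, on the minus strand of chromosome 14 at 54949060 to 54949142 and 54975700 to 54975776. Mir499 (735275) is in an intron of Myh7b on chromosome 2 at 155622880 to 155622958, plus strand.

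Mir206 was far above the other members, Mir1a-1 was the next, and Mir133a-2, Mir133b and Mir499 averaged near 1 TPM. Mir206 averaged 191 ± 103 TPM and Mir1a-1 10.4 ± 3.20 TPM (SD, n = 4), and their ranges over the libraries did not overlap. In bulk libraries such as these, fewer cells of a type and less RNA per cell cannot be told apart. Mir133a-2 at 1.45 ± 1.58, Mir133b at 1.32 ± 1.23 and Mir499 at 1.15 ± 1.23 TPM differed from each other by less than their SDs. Mir133a-1 averaged 0.356 ± 0.396 and Mir208b 0.0635 ± 0.0962 TPM, while Mir1a-2 and Mir208a were listed at 0 in all libraries. At 1 TPM or more in all 4 libraries, 2 of the 9 members were detected, Mir206 and Mir1a-1, against 33.1% of all miRNA genes. With 1 TPM in any library as the rule, 5 members passed, against 46.7% of miRNA genes. With at least 3 recovered reads in all libraries, 4 passed, against 42.1%, the additional members being Mir133b and Mir133a-2. The median of the 9 means was 1.15 TPM, and the median over all 643 miRNA genes was 0.315 TPM.

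**Figure D1:**
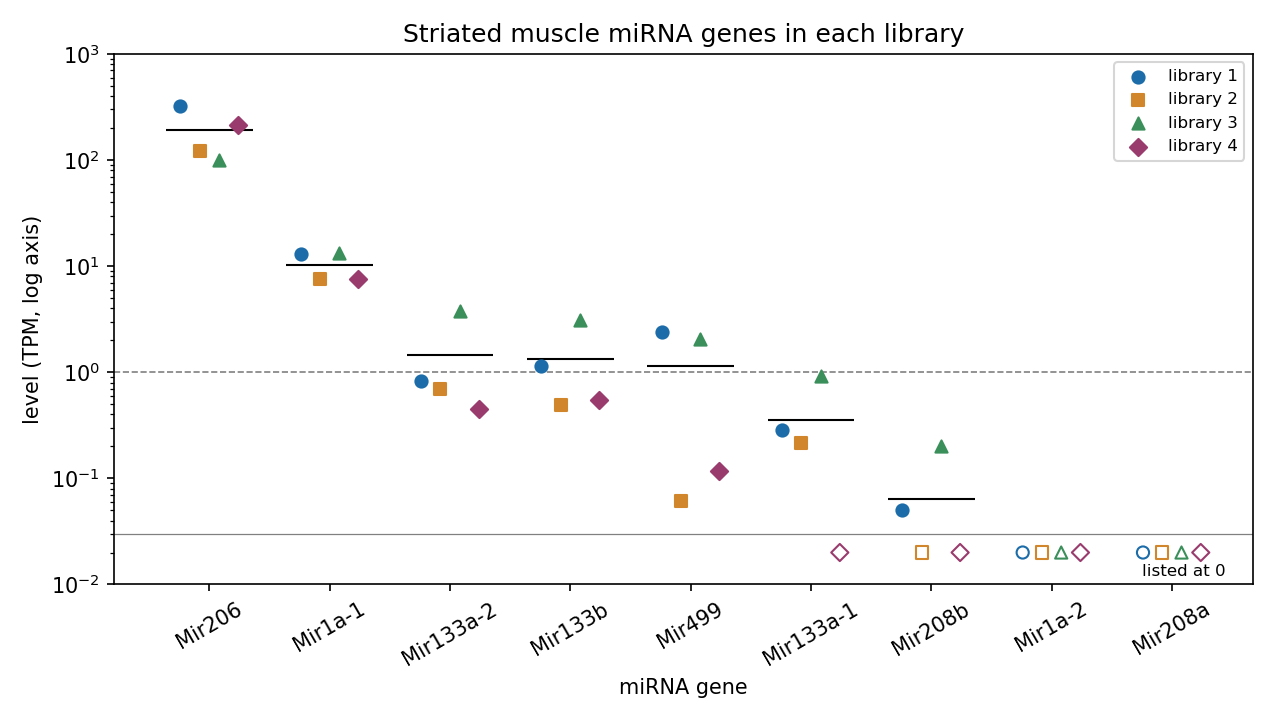
Level of each of the 9 genes in TPM (log axis) in each of the 4 libraries; the black bar is the mean, the dashed line is 1 TPM, and open symbols at the bottom are values listed at 0. Mir206 lies between 101 and 327 TPM, above every value of the other genes, and Mir1a-1 between 7.58 and 13.2 TPM.

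Mir206, a miRNA of skeletal muscle precursors and fibres, was at 327, 121, 101 and 216 TPM in libraries 1 to 4, from 6102, 1811, 1415 and 1696 reads. Libraries 1 and 4 were therefore high and libraries 2 and 3 low. The exact Poisson 95% intervals, which cover counting error only, were 319 to 335 and 205 to 226 TPM for the former and 115 to 126 and 95.9 to 106.5 TPM for the latter, and none of the 4 overlapped. As a share of all miRNA reads, which does not depend on gene length or on other RNA classes, Mir206 made up 0.691%, 0.167%, 0.145% and 1.16% in libraries 1 to 4. By this share library 4 exceeded library 1, whereas by TPM library 1 was the highest. Among the 643 miRNA genes it ranked 35, 67, 74 and 19 in the libraries and 49 by mean TPM. Its coefficient of variation was 54.1%, below that of 104 of the 170 miRNA genes with a mean of at least 10 TPM, whose median was 58.8%.

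**Figure D2:**
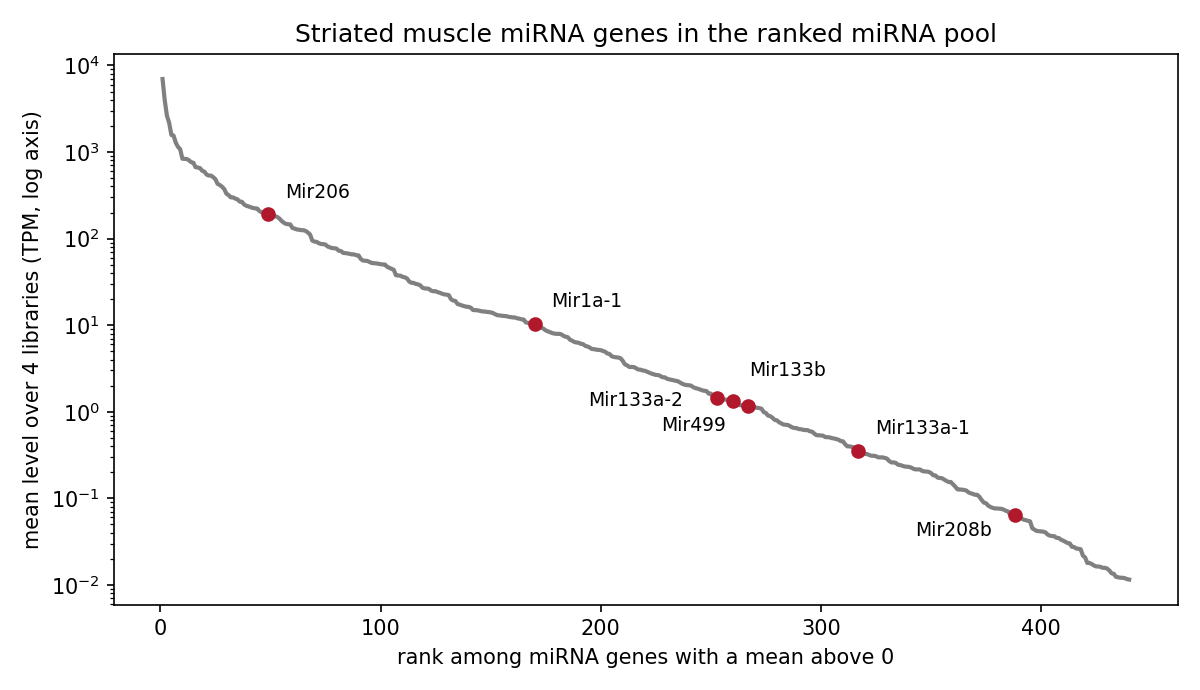
Mean level in TPM (log axis) of miRNA genes with a mean above 0, in order of rank, with the striated muscle members as points. Mir206 is at rank 49, Mir1a-1 at rank 170, and Mir133a-2, Mir133b and Mir499 lie together at ranks 253, 260 and 267.

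Mir1a-1, one of a pair of genes for the miR-1 of heart and skeletal muscle, was at 13.1, 7.58, 13.2 and 7.59 TPM in libraries 1 to 4, from 257, 120, 195 and 63 reads. Libraries 1 and 3 were high and nearly equal, and libraries 2 and 4 were low and nearly equal. Per 1000000 miRNA reads (RPM, not divided by gene length) the values were 291, 110, 199 and 431, so library 4 moved from among the lowest to the highest. The Poisson intervals on that scale, 256 to 329, 91.5 to 132, 172 to 229 and 331 to 551, did not overlap. Its paralog Mir1a-2 was listed at 0 in every library, where 3 reads would have been 0.163, 0.203, 0.217 and 0.387 TPM. Mir1a-2 overlaps Mir1b, annotated on the opposite strand and also listed at 0. The copies are known to share their mature 3p arm, so the split between them is uncertain and the reads of Mir1a-1 may stem from either locus. Reads of Mir1a-2 may also have gone uncounted where the rows overlap.

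The Mir133 genes, whose products repress regulators of myoblast growth, were low and highest in library 3. Mir133b was at 1.15, 0.491, 3.11 and 0.546 TPM in libraries 1 to 4, from 35, 12, 71 and 7 reads. Mir133a-2 was at 0.827, 0.702, 3.81 and 0.446 TPM, from 22, 15, 76 and 5 reads. For both genes the Poisson intervals of library 1 in TPM overlapped those of libraries 2 and 4, so only library 3 stood apart. Mir133a-1 gave 5, 3, 12 and 0 reads, and 3 reads in library 4 would have been 0.409 TPM. miR-133a and miR-133b are known to differ only at their 3′ end, so reads may be split between these genes by the counting. Summed over the 3 genes, the level was 2.26, 1.41, 7.84 and 0.992 TPM, or 70.2, 27.6, 163 and 82.0 RPM, with library 3 the highest on both scales. Without library 3 the mean of Mir133a-1 fell from 0.356 to 0.167 TPM, that of Mir133a-2 from 1.45 to 0.658 TPM, that of Mir133b from 1.32 to 0.729 TPM, and that of the sum from 3.13 to 1.55 TPM.

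Of the 3 genes inside myosin heavy chain genes, Mir499 supplied nearly all reads, and it was seen mainly in 2 libraries. Mir499, in the Myh7b gene of heart and slow muscle, was at 2.38, 0.0616, 2.05 and 0.117 TPM in libraries 1 to 4, from 48, 1, 31 and 1 reads. Libraries 1 and 3 lay above libraries 2 and 4, and their Poisson intervals of 1.75 to 3.15 and 1.39 to 2.91 TPM did not overlap those of libraries 2 and 4, 0.00156 to 0.343 and 0.00297 to 0.654 TPM. In RPM the intervals of library 3 (21.5 to 45.0) and library 4 (0.173 to 38.1) overlapped. Without library 1 the mean of Mir499 was 0.742 TPM. Mir208b, in the slow myosin gene Myh7, gave 1, 0, 3 and 0 reads. Mir208a, in the heart myosin gene Myh6, gave none, where 3 reads would have been 0.141, 0.176, 0.189 and 0.335 TPM. Mir208b and Mir208a were thus not distinguishable from each other at this depth.

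Members did not share 1 order of libraries. In TPM, libraries 1 and 4 were the highest for Mir206, libraries 1 and 3 for Mir1a-1, Mir133b, Mir133a-2 and Mir499. For Mir133b and Mir133a-2, library 1 was within counting error of libraries 2 and 4. Library 3 held the lowest value of Mir206 and the highest of Mir133b, Mir133a-2 and, by a margin within counting error, Mir1a-1. In RPM, library 3 was also the lowest for Mir206, at 1447, and the highest for Mir133b and Mir133a-2, at 72.6 and 77.7, with counting intervals that overlapped those of library 4. Library 2 was the lowest for Mir1a-1, Mir133b, Mir133a-2 and Mir499 on that scale, although the counting intervals of Mir133b, Mir133a-2 and Mir499 in library 4, from 7, 5 and 1 reads, overlapped those of library 2. Mir206 made up 94.9%, 93.0%, 81.3% and 96.1% of the summed TPM of the 9 genes in libraries 1 to 4, and the members other than Mir206 summed to 17.7, 9.05, 23.3 and 8.70 TPM. In library 3 Mir1a-1 took 10.6%, Mir133a-2 3.06%, Mir133b 2.50% and Mir499 1.65% of the sum.

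**Figure D3:**
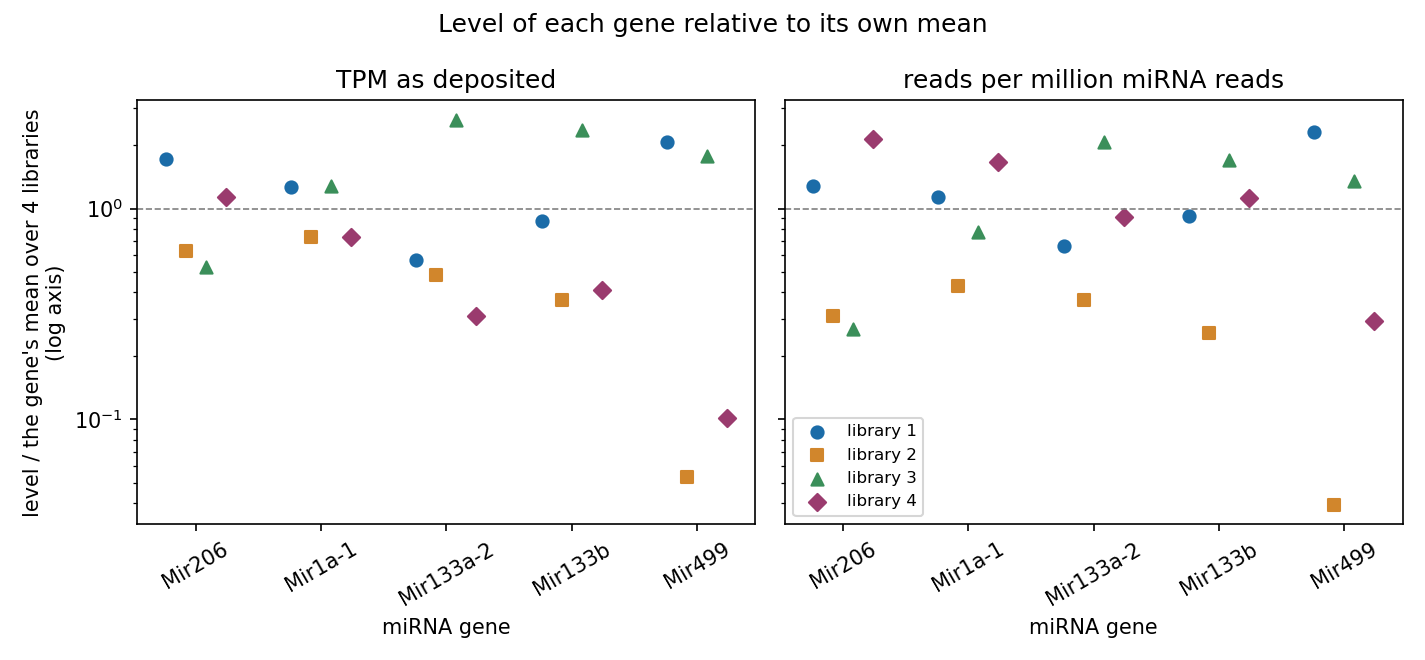
Level of 5 genes in each library divided by the gene's own mean over the 4 libraries (log axis), in TPM on the left and in reads per 1000000 miRNA reads (RPM) on the right; the dashed line is the mean. Library 3 is the lowest for Mir206 and the highest for Mir133a-2 and Mir133b in both panels, and Mir499 is near its mean or above it only in libraries 1 and 3.

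Ratios within a library set the members against each other, since both values then share the library's scaling. Each is the log2 of (TPM + 1) of the first over the second. Mir206 exceeded its neighbour Mir133b by 7.25, 6.35, 4.63 and 7.13 log2 units in libraries 1 to 4, a mean of 6.34 ± 1.21 (SD, n = 4), and was higher in 4 of 4 libraries. In TPM without a pseudocount the ratios were 284, 246, 32.5 and 395, smallest in library 3. Mir206 exceeded the Mir1a copies, known to share its 3p seed, by 4.54, 3.83, 2.85 and 4.66 log2 units (mean 3.97 ± 0.83), again least in library 3. All listed reads of these copies were under Mir1a-1, since Mir1a-2 was at 0 in every library. Reads of Mir1a-2 may also have gone uncounted, because its row overlaps that of Mir1b, so this excess may be overstated. The chromosome 1 pair of Mir206 and Mir133b exceeded the Mir1a and Mir133a copies by 3.80 ± 0.97 log2 units in 4 of 4 libraries. Mir1a-1, Mir1a-2 and Mir133a-2 overlap other rows, unlike Mir206 and Mir133b. The effect of that overlap on this ratio was not tested. The chromosome 1 pair exceeded Mir208a, Mir208b and Mir499 by 6.51 ± 1.09 in 4 of 4, a value that rests on 1 read of those genes in each of libraries 2 and 4 and on the pseudocount. The Mir133a copies and Mir133b were at similar levels, with log2 ratios of -0.02, 0.36, 0.48 and -0.10 and a mean of 0.18 ± 0.28, higher in 2 of 4 libraries. From reads not divided by length this mean was 0.00.

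Against markers of other cell types, Mir206 exceeded liver Mir122 by 1.82, 2.31, 0.95 and 0.58 log2 units, a mean of 1.42 ± 0.79 in 4 of 4 libraries. It lay below endothelial Mir126a in 3 of 4 libraries, with log2 ratios of 0.22, -1.84, -2.37 and -0.22 and a mean of -1.05 ± 1.25. The sum of the 9 genes lay below smooth muscle Mir143 and Mir145a in 3 of 4 libraries, at -0.72, -3.10, -2.23 and 0.14, with a mean of -1.48 ± 1.46. In all, 8 ratios were computed. The signs of the 4 log2 ratios were permuted in an exact two-sided test, and the 5 ratios with 1 sign in all libraries each reached its smallest possible value, p = 0.13 (0.20 after Benjamini-Hochberg adjustment over the 8). The exact permutation p was 0.50 for Mir133a against Mir133b, 0.25 for striated against smooth muscle and 0.375 for Mir206 against Mir126a, with adjusted p of 0.50, 0.333 and 0.429. No ratio could pass 0.05 in this design.

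**Figure D4:**
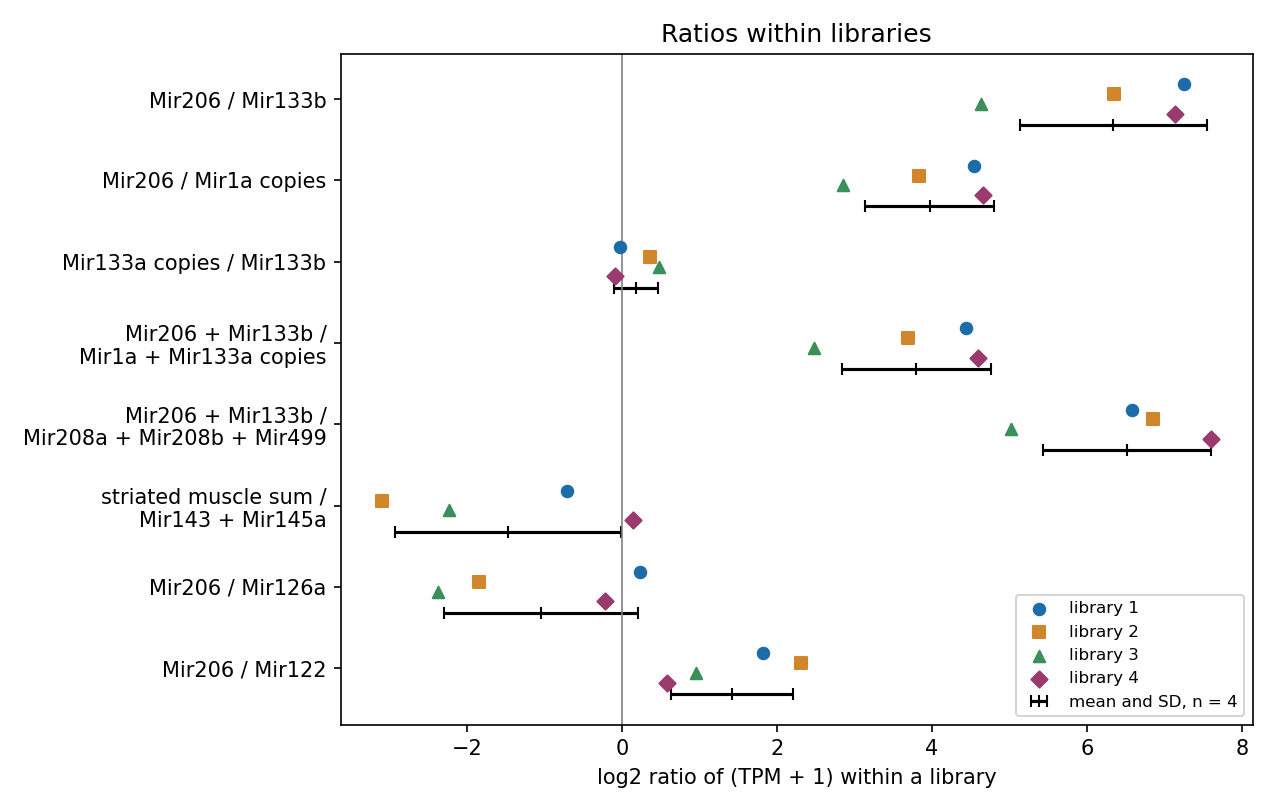
Log2 ratios of (TPM + 1) within each library for the 8 pairs, with the mean and SD over the 4 libraries in black. In the ratios of Mir206 to Mir133b and to the Mir1a copies, library 3 is the lowest at 4.63 and 2.85, and the ratio of Mir133a to Mir133b straddles 0.

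By mean level Mir206 stood among unrelated miRNA genes. Next above it were Mir191 at 193 ± 93.3, Mir181a-1 at 199.7 ± 112 and Mir30c-2 at 201 ± 133.1 TPM, and next below were Mir495 at 189 ± 90.5, Mirlet7e at 189 ± 138 and Mir485 at 181 ± 108 TPM (SD, n = 4). None of these 6 means differed from that of Mir206 by more than the SDs, but the genes were picked as the nearest by mean. In library 4 Mir206 at 216 TPM was above all 6, which lay between 36.6 and 127 TPM. Likeness of library profile was measured as the root mean square difference of log2(TPM + 1), each gene centred on its own mean, over 4 libraries and 170 miRNA genes with a mean of at least 10 TPM. The nearest to Mir206 was Mir375, known from endocrine and neuroendocrine cells, with a difference of 0.28 log2 units and levels of 17.0, 10.6, 6.52 and 15.1 TPM in libraries 1 to 4. Mirlet7a-1 followed at 0.38 (89.9, 23.03, 17.04 and 72.4 TPM), then Mir485 at 0.54, Mir483 at 0.55 and Mirlet7f-1 at 0.59. Mir1a-1 was at 0.72, in place 9 of 169. Mir208b, with 4 reads in total, was at 0.73, so that place does not show a shared profile. Mir133a-1 was at 0.91, Mir499 at 0.92, Mir133b at 1.04 and Mir133a-2 at 1.21. Apart from Mir1a-1, these members had means below 10 TPM. With 4 libraries likeness of profile is a description, and many genes share the library totals.

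miRNAs outside the 9 that are linked to skeletal muscle differentiation were listed separately. Of 32 such genes 31 had a row, and 16 were at 1 TPM or more in all libraries, against 33.1% of all miRNA genes. Their median mean was 12.02 TPM, beside 0.315 TPM over all miRNA genes. The highest were Mir26a-2 at 1575 ± 925, Mir125b-1 at 663 ± 583, Mir128-1 at 239 ± 99.7 and Mir181b-2 at 224 ± 145 TPM (SD, n = 4). Mir125b-1 averaged 406 TPM over libraries 2 to 4. These 4 genes are widely expressed in embryonic tissue, and each was lowest in library 4 in TPM, unlike Mir206. That holds for 140 of 170 miRNA genes (82.4%) with a mean of at least 10 TPM, so it is not particular to this list. In RPM, Mir125b-1 and Mir181b-2 were still lowest in library 4, and Mir128-1 was highest there. Mir26a-2 was lowest in libraries 3 and 4, which were nearly equal at 29193 and 29490 RPM. Another 11 (35.5%), among them Mir486 and Mir22, were listed at 0 in all libraries, beside 203 (31.6%) of all miRNA genes. Of the 11, 10 overlapped another row, against 43 of the 203, and for those 10 the 0 is not evidence of absence. Of 12 long non-coding genes linked to muscle, 5 had a row. H19, an imprinted RNA abundant in embryonic mesoderm and muscle, was at 0.637, 0.113, 0.172 and 0.848 TPM in libraries 1 to 4. Malat1, a nuclear RNA of most cells, was at 0.511, 0.102, 0.217 and 0.478 TPM, so both were highest in libraries 1 and 4. Meg3, at 0.0361, 0.0049, 0.0093 and 0.028 TPM, was also highest there. Neat1 was above 0 only in library 3. Mir1a-1hg, which spans Mir1a-1 and Mir133a-2, had a mean of 0.00113 TPM over its whole length.

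Markers of other cell types differed between the same libraries, and their part in the levels of the muscle miRNAs was not tested. The striated muscle list summed to 345, 130, 124 and 224 TPM in libraries 1 to 4. Liver Mir122 was at 91.8, 23.5, 51.7 and 143 TPM, with libraries 1 and 4 the highest, as for Mir206. The neural list summed to 351, 37.6, 3082 and 98.1 TPM and the erythroid list to 3.88, 0.878, 11.9 and 0.902 TPM, with libraries 1 and 3 the highest, as for Mir499, Mir133b and Mir133a-2. The neural sum was mostly Mir9-3, at 345, 35.2, 2861 and 78.3 TPM, whereas Mir219a-2 was highest in libraries 3 and 4, at 182 and 16.5 TPM. The epithelial list, at 73.8, 46.3, 157 and 43.5 TPM, and the white blood cell list, at 5.67, 3.68, 9.19 and 3.61 TPM, were also highest in libraries 3 and 1. In RPM these orders held for the liver, neural and erythroid lists and for Mir206 and Mir499, whereas library 4 was the highest for the epithelial list (2291) and the white blood cell list (171), and libraries 3 and 4 were the highest for Mir133b and Mir133a-2. For Mir133b and Mir133a-2 the counting intervals of library 4 in RPM overlapped those of library 1. Of these lists, 1 of 9 neural, 0 of 3 erythroid, 5 of 6 epithelial and 0 of 4 white blood cell genes with a row were at 1 TPM or more in all libraries, beside 33.1% of all miRNA genes. Mir124a-1, Mir486 and Mir223 were listed at 0, which need not mean absence. Smooth muscle Mir143 and Mir145a summed to 567, 1118, 589 and 203 TPM, and the mesenchymal stroma list to 1327, 1255, 855 and 128 TPM, both lowest in library 4. The endothelial, epithelial and white blood cell lists were also lowest there, while the striated muscle, liver, neural and erythroid lists were not. Of 170 miRNA genes with a mean of at least 10 TPM, 140 (82.4%) were lowest in library 4. In RPM the stroma list was again lowest in library 4, at 7042, and the smooth muscle genes in library 3, at 7312. Endothelial Mir126a, lowest in library 4 in TPM, was instead highest there in RPM, at 13490.

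**Figure D5:**
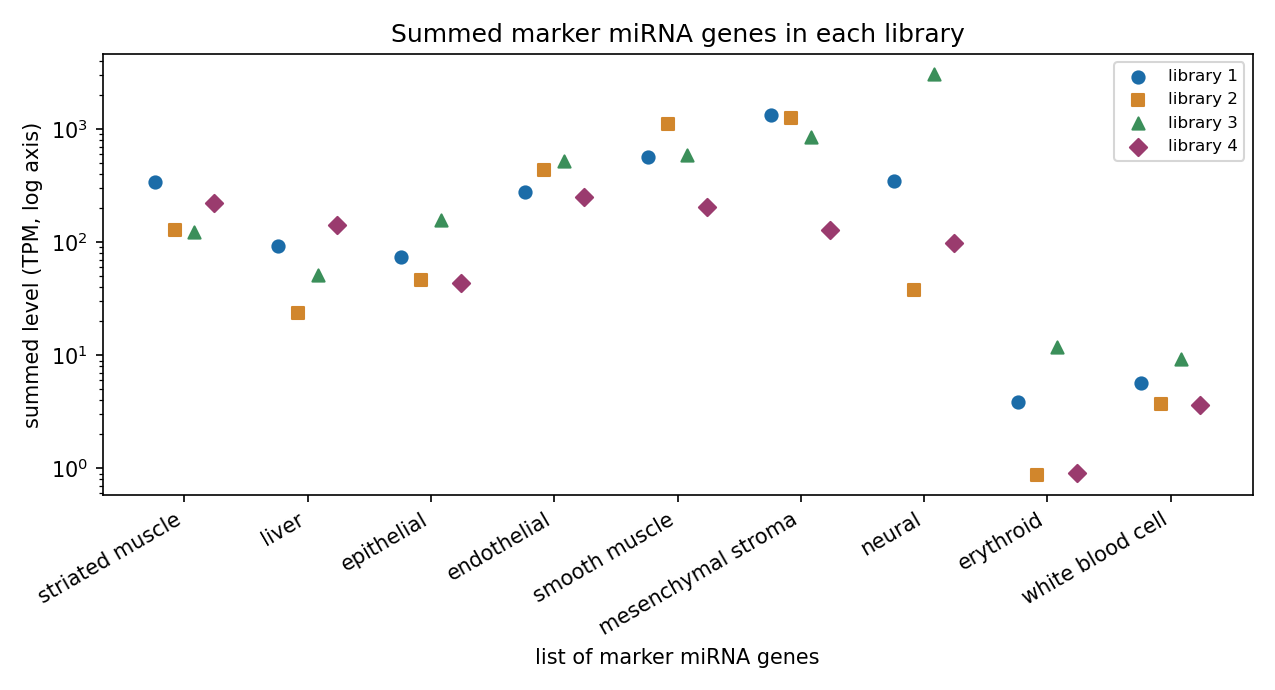
Summed TPM (log axis) of each list of marker miRNA genes in each library. In TPM the striated muscle and liver lists are highest in libraries 1 and 4, the neural, erythroid, epithelial and white blood cell lists in libraries 1 and 3. The smooth muscle and mesenchymal stroma lists are lowest in library 4 at 203 and 128 TPM. Of miRNA genes with a mean of at least 10 TPM, 82.4% are also lowest there. In RPM the epithelial, endothelial, white blood cell and smooth muscle lists have another order.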

How the data were processed

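Small RNA from 4 libraries of flow-sorted cells was made with a small RNA kit and read as single 75 bp reads, per the labels' protocols and design text. The deposited values are TPM, with 1 row per Entrez gene, and the submitters' processing notes name mm10, GRCm38 and limma. Neither the aligner, nor the counter, nor a rule for reads with several matches is stated in these sources. Gene IDs were joined to RefSeq GRCm38.p6, which named 2541 of 2976 rows. In each library, 100% of nonzero miRNA values, multiplied by gene length, were whole multiples of the smallest such product (tolerance 0.01), and these multiples served as reads. No count model was fitted. TPM over the rows held here summed to 2.33% to 7.22% of 1000000, so levels in TPM also move with genes not used here. Dividing by hairpin length favours short hairpins, and small RNA ligation favours some miRNAs, so levels of different genes are relative. Reads are not counted molecules, so intervals and the limit of 3 reads cover counting error only.

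The members and lists were chosen with earlier results of these data known. Named genes were all members, the 3 genes on either side of Mir206 by mean, the 5 nearest profiles, and up to 4 leading genes per list, besides genes that a count refers to. Ratios used a pseudocount of 1 TPM, which shrinks differences of low genes. They were tested by permuting the signs of the 4 log2 ratios (exact, two-sided), with Benjamini-Hochberg adjustment over 8 ratios. The steps were tested on simulated data. Alternatives covered pseudocount, scaling, gene length, copies, detection rule, low-value filter and leaving out each library. The tools were scipy 1.17.1 and numpy 2.4.6 with pandas 2.3.3 in Python 3.11.15, and matplotlib 3.10.9 for figures.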

Additional observations from a re-analysis of the deposited data

Results flagged for a closer look

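Mir133a-2 stood out in library 3, at 3.81 TPM against 0.827, 0.702 and 0.446 TPM in libraries 1, 2 and 4. The gap to the nearest library was 0.887 of the whole range, above the 95% limit of Dixon's test for 4 values. In reads per 1000000 miRNA reads it was at 77.7 in library 3 against 24.9, 13.8 and 34.2, and the gap did not pass the limit. Of 24 sets of values checked this was the only 1 to pass, and chance flags about 1 in 20. The check did not cover every gene and list reported here, so Mir133a-2 is not shown to be the only outlier. The neural list, for example, was at 3082 TPM in library 3 against 351, 37.6 and 98.1 TPM in libraries 1, 2 and 4.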

How the results depend on the processing

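All 68 alternative values of the 8 ratios kept the direction reported, over pseudocount, scaling, gene length, copies and left-out libraries. For the 5 ratios with 1 sign in all libraries, pseudocount, rescaling to the same miRNA total and left-out libraries could not have reversed the direction. Those values therefore give it no support. The size of the ratios moved with the pseudocount: the ratio of Mir206 to Mir133b was 7.27 with 0.1 TPM and 4.01 with 10 TPM, and that of the Mir206 and Mir133b pair to Mir208a, Mir208b and Mir499 was 8.001 and 4.04, or 8.17 from reads per 1000000 miRNA reads. Choosing 1 copy applied only to ratios with Mir1a or Mir133a copies. It left the ratio of Mir206 to the Mir1a copies unchanged by construction, because Mir1a-2 was listed at 0. Leaving out each library in turn, the mean of Mir206 was 146 to 221 TPM, that of the muscle sum 159 to 233 TPM, the share from Mir206 89.7% to 94.7%, the rank of Mir206 38 to 57, and the number of detected members 2. In reads per 1000000 miRNA reads, another unit, Mir206 averaged 5404 and the muscle sum 5772. Of the members, 5 were detected with 1 TPM in any library and 4 with 3 reads in all. Of the 5 nearest profiles, 3 stayed with no filter on low values and 1 with a mean of at least 100 TPM, which by construction drops Mir375, Mirlet7a-1, Mir483 and Mirlet7f-1. No paired analysis was possible because the 4 libraries form 1 group. Values under about 10 reads are limited by depth. Examples are Mir208b, Mir133a-1 outside library 3, Mir499 in libraries 2 and 4, and Mir133b and Mir133a-2 in library 4.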

Other observations

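The order of libraries seen for Mir206 was uncommon in TPM. Among the 170 miRNA genes with a mean of at least 10 TPM, 140 (82.4%) had their lowest level in library 4. In 7 genes (4.12%) libraries 1 and 4 were both above libraries 2 and 3, a pattern chosen after the values of Mir206 were seen. Besides Mir206 these were Mir122, Mir375, Mir376b, Mir1839, Mir3068 and Mirlet7a-1. Mir122, the main miRNA of liver cells, was at 91.8, 23.5, 51.7 and 143 TPM in libraries 1 to 4, Mir3068 at 10.1, 7.64, 8.25 and 49.9 TPM, and Mir1839 at 49.7, 41.8, 41.2 and 134 TPM. In reads per 1000000 miRNA reads 38 of the 170 genes (22.4%) had this order, so it was more common once the low miRNA total of library 4 was scaled away.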
